A study of Mus musculus with 2 samples.

Results

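The cells described here are mature bone marrow neutrophils rich in Mmp8 and Mmp9 transcripts. They are labelled as rich in gelatinase granule transcripts, and they were chosen from their transcripts alone. Levels are UMIs per 10000 UMIs of the cell, where a UMI (unique molecular identifier) counts 1 captured mRNA molecule. A cell counted as a mature neutrophil when S100a8 and S100a9 together reached at least 400, Ltf, Camp and Ngp together stayed under 400, and C1qa, C1qb and C1qc together stayed under 20. Of these, members had Mmp8 and Mmp9 together at 60 or more, Ifit1, Ifit3 and Ifit3b together under 30, and Stfa1, Stfa2, Stfa3 and BC100530 together under 20. The rule took 1568 of 10610 cells, which were 783 of 5398 cells in the MCAO library and 785 of 5212 cells in the control library. The values of these gate genes chose the members, so they are given as a description and support nothing. Both libraries came from bone marrow of male wild-type mice aged 8 to 10 weeks. 1 library came from the MCAO group, in which the middle cerebral artery was occluded to cause a stroke, and 1 from the control group. Marrow cells were loaded unsorted, after lysis of red cells, on the BD Rhapsody system, which captures single cells in microwells. How many animals each library pooled, how long after occlusion marrow was taken and how control animals were handled is not stated in the labels used. Each group had 1 library, so conditions could not be tested against each other, and an effect of MCAO and a difference between these libraries cannot be told apart. Brackets give 95% intervals, which cover counting error only.

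Neutrophils fill their granules in a fixed order as they mature in the marrow. Primary granules with myeloperoxidase and elastase come first, secondary granules with lactoferrin and cathelicidin follow in myelocytes, and gelatinase granules, rich in matrix metalloproteinase 9, come last. Gelatinase granules are released more readily than the other granules, and their membranes bring integrins and formyl peptide receptors to the cell surface. Cxcr2 and Cxcr4, the receptors that favour release from the marrow and retention in it, mark the balance at which mature cells leave for the blood.

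The label of these cells rests on 5 genes. Mmp8 encodes neutrophil collagenase, Mmp9 gelatinase B, Mmp25 a membrane-anchored metalloproteinase of neutrophils, Retnlg a resistin-like secreted protein, and Fpr1 a receptor for formylated bacterial peptides. The 250 bases upstream of their RefSeq start (build GRCm38.p6) are shown for the 4 marker genes in the promoter table, because C/EBP and PU.1 factors are known to drive granule genes. Sequences run 5′ to 3′ on the gene's strand, and capitals mark matches, on either strand, to TTNNGNAA (C/EBP), GAGGAA (PU.1) or TGANTCA (AP-1). The windows are chr9:7558179-7558428 (plus strand) for Mmp8, chr16:48872358-48872607 (plus) for Retnlg, chr17:23645270-23645519 (minus) for Mmp25 and chr17:17883940-17884189 (minus) for Fpr1.
Mmp8: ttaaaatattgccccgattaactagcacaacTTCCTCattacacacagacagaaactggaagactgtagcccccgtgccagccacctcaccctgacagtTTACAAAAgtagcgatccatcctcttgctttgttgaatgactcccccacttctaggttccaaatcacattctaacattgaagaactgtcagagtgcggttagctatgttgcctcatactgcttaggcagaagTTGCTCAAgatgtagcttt
Retnlg: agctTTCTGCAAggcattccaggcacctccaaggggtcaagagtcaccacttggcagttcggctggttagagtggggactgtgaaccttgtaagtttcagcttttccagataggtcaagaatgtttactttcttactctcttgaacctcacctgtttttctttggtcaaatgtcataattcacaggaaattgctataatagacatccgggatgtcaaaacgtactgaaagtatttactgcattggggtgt
Mmp25: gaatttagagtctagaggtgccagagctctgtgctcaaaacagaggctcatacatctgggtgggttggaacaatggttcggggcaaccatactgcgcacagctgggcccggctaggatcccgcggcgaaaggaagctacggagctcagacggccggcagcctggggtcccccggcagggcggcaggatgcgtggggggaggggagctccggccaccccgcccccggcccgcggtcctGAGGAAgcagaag
Fpr1: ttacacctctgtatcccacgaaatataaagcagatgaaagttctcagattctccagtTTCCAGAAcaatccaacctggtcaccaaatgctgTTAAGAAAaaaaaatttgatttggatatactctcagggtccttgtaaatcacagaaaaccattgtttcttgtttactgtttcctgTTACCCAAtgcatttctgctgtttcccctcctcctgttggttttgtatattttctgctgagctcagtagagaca
The Mmp8 window held 2 C/EBP matches, which began 151 and 19 bases before the start, and 1 PU.1 match. Fpr1 had 3 C/EBP matches, Retnlg had 1, and Mmp25 had 1 PU.1 match that began 13 bases before the start. None of the 4 windows held the AP-1 letters. Of 32851 windows of the same length, 36.8% held the C/EBP letters, 23.3% the PU.1 letters and 6.75% the AP-1 letters, so a match is common and describes these letters only.

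All 5 markers were found in the members of both libraries. Retnlg stood at 408 [406 to 410] in the MCAO library and 412 [409 to 414] in the control library, and every member of both libraries had at least 1 Retnlg UMI, as did 92.2% of MCAO and 92.0% of control B lineage cells, so having a UMI of it marks no cell type here. Mmp25 was at 2.32 [2.15 to 2.5] in the MCAO library and 2.32 [2.14 to 2.52] in the control library, and 45.0% of MCAO and 39.2% of control members had a UMI of it. These intervals overlapped for both genes. Fpr1 was at 9.30 [8.96 to 9.65] in MCAO members and 11.1 [10.7 to 11.5] in control members, intervals that did not overlap. The neutrophil markers Ly6g (12 and 10.3 in MCAO and control members), Cxcr2 (35.4 and 37.6) and Csf3r, the granulocyte colony stimulating factor receptor (8.09 and 9.18), were present too. B lineage cells, not known to make these proteins, served as a gauge of free RNA and stood at 14.2 and 13.4 for Retnlg and at 0.0706 and 0.0592 for Mmp25 in the MCAO and control libraries.

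**Figure D1:**
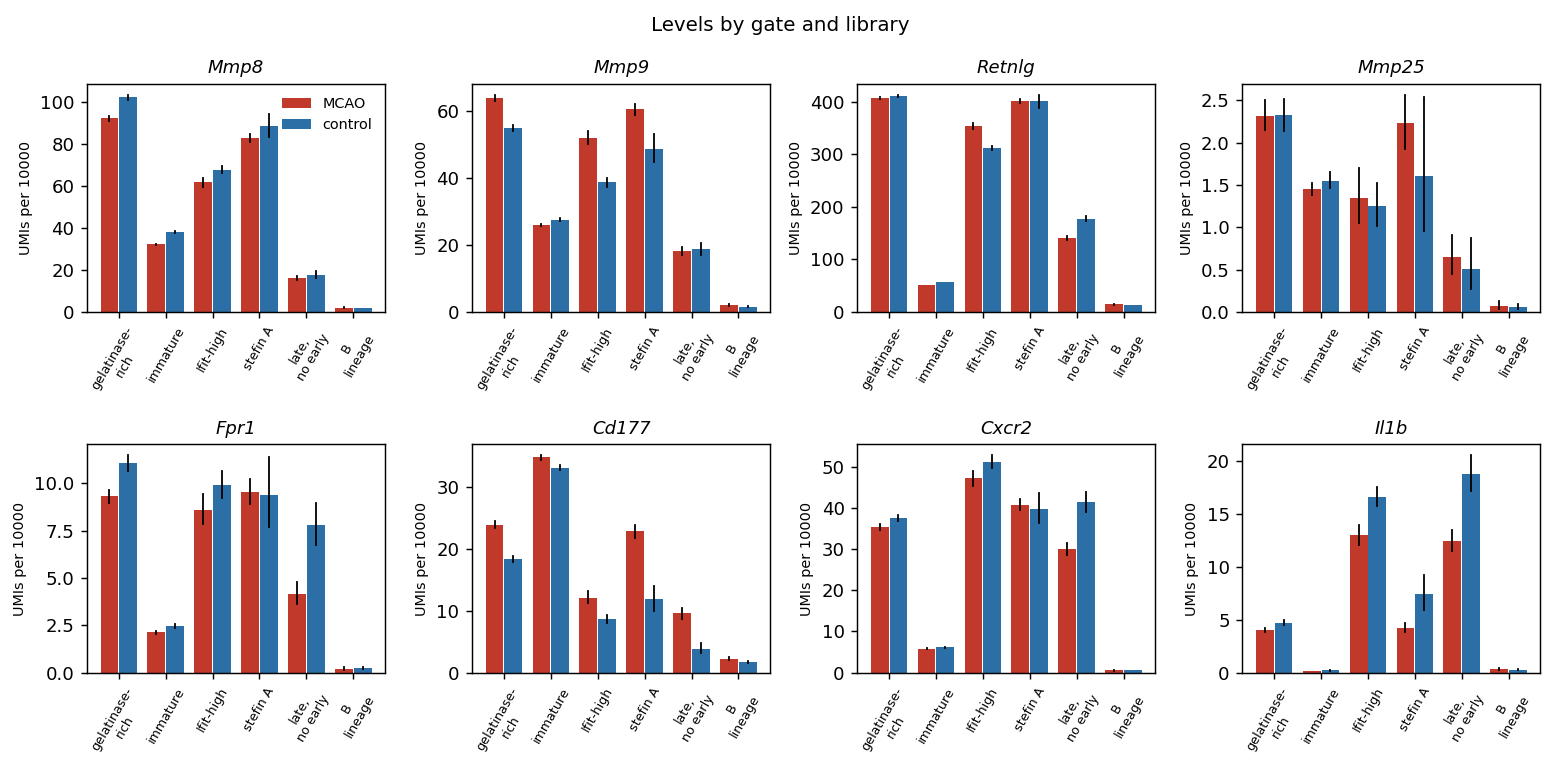
Levels of the 5 markers, Cd177, Cxcr2 and Il1b (UMIs per 10000, vertical axes) in 6 gates, with MCAO bars in red left of control bars in blue and lines for 95% Poisson intervals. Retnlg reaches 408 and 412 in gelatinase-rich cells, against 51.1 and 56.6 in immature neutrophils of the MCAO and control libraries, while Cd177 is higher in immature neutrophils; Mmp8 and Mmp9 chose the gates.

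Gelatinase-rich cells made up a similar part of both libraries, 14.5% [13.6 to 15.5] in the MCAO library and 15.1% [14.1 to 16.1] in the control library. Among mature neutrophils their share was 55.4% [52.8 to 58.0] in the MCAO library, 783 of 1413 cells, and 60.4% [57.7 to 63.1] in the control library, 785 of 1299 cells. The negative sign of this difference of -5.02 percentage points came with the clause on stefin A genes. By the clause on Mmp8 and Mmp9 alone, 79.8% [77.6 to 81.9] of MCAO and 79.8% [77.5 to 82.0] of control mature neutrophils qualified. With the stefin A clause dropped, a choice made after the data were seen, the shares were 69.2% [66.7 to 71.6] in the MCAO library and 62.0% [59.3 to 64.7] in the control library. The neighbouring gates held the balance. Mature cells with stefin A genes at 20 or more were 16.8% of MCAO and 3.08% of control mature neutrophils, whatever their Ifit level. Ifit-high cells had Ifit genes at 30 or more and stefin A genes under 20. They were 12.8% of mature neutrophils in the MCAO library and 25.1% in the control library. With cells under 2000 UMIs left out the difference was -10.9 points, and with every cell thinned to 1000 UMIs before gating it was -1.71 points, and the part of depth in it was not tested. Members had a median of 3612 UMIs in the MCAO library and 3127 in the control library.

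**Figure D2:**
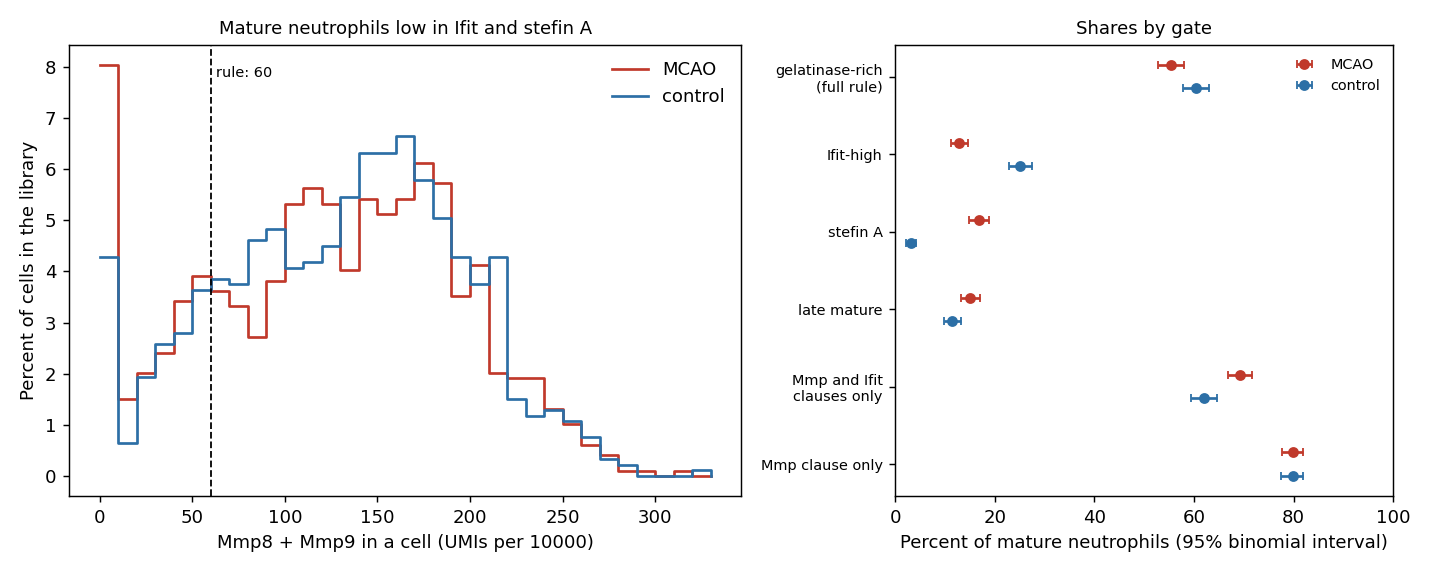
Left, percent of mature neutrophils low in Ifit and stefin A genes (vertical axis) by their Mmp8 plus Mmp9 level in UMIs per 10000 (horizontal axis), with the rule at 60 dashed. Right, share of mature neutrophils in each gate with 95% binomial intervals, MCAO in red above control in blue: the full rule gives 55.4% and 60.4%, and the clause on Mmp8 and Mmp9 alone 79.8% in both.

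The limit of 60 fell inside a continuous range. Mmp8 plus Mmp9 had a median of 150.5 in MCAO members and 150.4 in control members, with quartiles of 112 and 186 in the MCAO library and 110 and 186 in the control library. Just inside the rule, at 60 to 70, lay 36 MCAO and 36 control cells, and just outside, at 50 to 60, lay 39 MCAO and 34 control cells. Retnlg was at 231 and 252 just inside and at 212 and 261 just outside in the MCAO and control libraries. Cxcr2 likewise stood at 44.5 and 52.2 inside and at 42.3 and 51.8 outside. Cells under 10 for Mmp8 plus Mmp9, 80 in the MCAO library and 40 in the control library, were of another kind: 87.5% of these MCAO cells and 67.5% of these control cells reached 30 for the early granule genes Mpo, Elane, Prtn3, Ctsg, Ms4a3 and Fcnb together.

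The 2 metalloproteinase genes are described here although their sum chose the members, and nothing is read from their values. Mmp8 was at 92.1 [91.0 to 93.2] in MCAO members and 102 [101 to 104] in control members. Mmp9 was at 64.1 [63.2 to 65.0] in MCAO members and 55.0 [54.1 to 55.9] in control members. Neither gene reached 1.5-fold, with log2 ratios of -0.15 for Mmp8 and 0.22 for Mmp9. Mmp8 gave 58.9% of the UMIs of both genes in MCAO members and 65.0% in control members. More Mmp8 than Mmp9 UMIs were found in 70.8% [67.4 to 73.9] of MCAO members and 84.6% [81.9 to 87.0] of control members. Both transcripts were present in 99.4% of MCAO and 99.5% of control members. In B lineage cells a Mmp8 UMI was found in 37.8% of MCAO and 34.3% of control cells and a Mmp9 UMI in 36.0% of MCAO and 30.9% of control cells.

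Cd177, the surface antigen after which the series is named and a secondary granule membrane protein that binds proteinase 3 in human cells, was at 24.0 [23.4 to 24.5] in MCAO members and 18.4 [17.8 to 18.9] in control members. It was found in 91.4% [89.3 to 93.3] of MCAO members and 82.7% [79.8 to 85.3] of control members. With every cell thinned to 1000 UMIs these shares were 76.4% of 781 MCAO and 65.9% of 777 control members. The log2 ratio of MCAO over control was 0.38 in the members and 0.42 in B lineage cells, where the level was 2.22 in the MCAO library and 1.65 in the control library and 21.1% of MCAO and 13.4% of control cells thinned alike had a UMI. Among members with 2000 to 4000 UMIs the log2 ratio was 0.01. The part of free RNA and depth in the Cd177 difference was not tested. Members had less Cd177 than immature neutrophils, where it was at 34.8 in the MCAO library and 33.2 in the control library, and more than Ifit-high cells, where it was at 12.2 in the MCAO library and 8.69 in the control library.

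Members were next set beside immature neutrophils, the 1405 MCAO and 1030 control cells with the same S100a8 and S100a9 minimum but Ltf, Camp and Ngp at 400 or more. This comparison was added after the data were seen. Most tested genes of the pattern and Fc receptor, chemoattractant receptor, immediate early, NF-kB inflammatory and interferon response lists were higher in members than in immature cells. Most tested genes of these lists were in turn higher in Ifit-high mature cells than in members, so their higher level was not limited to the members. Cell cycle genes were lower in members than in immature cells. Tested genes had at least 0.5 per 10000 in either gate in each of the libraries, and gate genes were left out. Of these 3106 genes 616 (19.8%) were at least 1.5-fold higher in members in both libraries and 776 (25%) were lower. Among the highest ratios was Clec4d, a C-type lectin receptor for microbial glycolipids, at 6.40 in members against 0.243 in immature cells of the MCAO library and 10.6 against 0.418 in the control library. Il1b, which encodes the inflammatory cytokine interleukin 1 beta, was at 4.01 in members against 0.169 in immature cells of the MCAO library, and 4.72 against 0.225 in the control library. The chemokine Ccl6 was 4.27 and 4.51 higher on the log2 scale in the MCAO and control libraries, and Cxcl2, a chemokine that attracts neutrophils, 3.74 and 3.5 higher. Jaml, an adhesion molecule for crossing epithelia, Clec7a, the beta-glucan receptor Dectin-1, Aqp9, a water and glycerol channel, and Srgn, the proteoglycan core of granules, were also among the 12 highest. Members were lowest for Olr1, a scavenger receptor, at -3.75 on the log2 scale in both libraries. Ltf, Camp and Ngp, which separate these gates, are secondary granule genes, so other genes of that stage are given as a description and nothing is read from them. The secondary granule gene Chil3 was at 9.22 in members against 88.2 in immature cells of the MCAO library, and 7.86 against 97.1 in the control library. The ficolin gene Fcnb, the acute phase gene Orm1, the fatty acid receptor gene Ffar2 and the mitotic genes Cenpe, Cenpf, Kif20b and Cdc25a were among the 12 lowest.

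The lists were counted gene by gene. In the pattern and Fc receptor list 13 of 17 tested genes were at least 1.5-fold higher in members than in immature cells in both libraries and 1 was lower. In the chemoattractant and trafficking receptor list 9 of 13 were higher and 1 was lower. Cxcr2 led at 35.4 in members against 5.78 in immature cells of the MCAO library and 37.6 against 6.13 in the control library. Cxcr4, the marrow retention receptor, was 0.46 and 0.52 higher on the log2 scale in the MCAO and control libraries. Of 11 immediate early genes 9 were higher, of 7 NF-kB inflammatory genes 5, and of 18 interferon response genes outside the gate 12, with none lower in these lists. All 14 tested cell cycle genes were lower, with medians of -2.48 in the MCAO library and -2.39 in the control library, and Mki67 stood at 1.09 in members against 8.61 in immature cells of the MCAO library. Of 9 tested gelatinase granule and mobilisable membrane genes outside the gate 5 were higher and none was lower. Of 6 primary granule genes 4 were lower and 1, Srgn, was higher, at 22.7 in members against 2.21 in immature cells of the MCAO library and 31.2 against 2.77 in the control library. Of 12 secondary granule genes outside the gate 6 were lower and 1 was higher. Of the 8 NADPH oxidase genes 1 was higher and 2 were lower, and Cybb, its catalytic subunit, had log2 ratios of members over immature cells of -1.73 in the MCAO library and -1.68 in the control library. Over all tested genes the median log2 ratio was -0.07 in the MCAO library and -0.08 in the control library.

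Late mature neutrophils, which met the same limits for Ifit and stefin A genes but had Mmp8 and Mmp9 under 60, numbered 212 in the MCAO library and 148 in the control library. Against them 495 of 3636 genes (13.6%) were at least 1.5-fold higher in members in both libraries and 1507 (41.4%) were lower, but Prtn3, Fcnb, Ms4a3, Elane and Mpo headed the lower genes. In this gate 34.9% of MCAO and 20.3% of control cells reached 30 for the early granule genes. Levels are summed UMIs, so these cells weighed more than their number. The gate held 1600949 UMIs in the MCAO library and 619650 in the control library, of which cells under 30 held 507342 and 254943. With cells at 30 or more for the early granule genes left out, a choice made after the data were seen, 138 MCAO and 118 control late cells remained, and 158 of 2985 genes (5.29%) were higher in members and 624 (20.9%) lower. Against these cells the members were higher in Gpr27, an orphan receptor gene, at 1.98 against 0.0788 in the MCAO library and 1.27 against 0.0784 in the control library. Tinagl1, which encodes a matrix protein related to cathepsins, was 2.49 and 2.88 higher in members on the log2 scale in the MCAO and control libraries. Ceacam10 was 1.91 and 1.95 higher, the receptor gene Acvrl1 2.18 and 1.87 higher, and Itgb2l, an integrin beta subunit gene, 1.75 and 2.18 higher. Of the 3 markers outside the gate, Retnlg was higher by 1.54 and 1.21 and Mmp25 by 1.80 and 2.14. Fpr1 had log2 ratios of 1.16 in the MCAO library and 0.50 in the control library, the second of which is under 1.5-fold. These markers went up with Mmp8 plus Mmp9, which separates these gates, so nothing is read from their ratios. From 10 to 40 up to 200 to 400 for that sum, Retnlg went from 99.1 to 442 in the MCAO library and from 161 to 427 in the control library. Mmp25 went from 0.496 to 3.27 in the MCAO library and from 0.105 to 3.14 in the control library. Thbs1, which encodes thrombospondin 1, was at 0.585 in members against 0.138 in late cells of the MCAO library and 4.98 against 0.941 in the control library. Il1b was lower in members, at 4.01 in MCAO members against 12.4 in MCAO late cells and at 4.72 in control members against 18.7 in control late cells. In the immediate early list 11 of 13 tested genes were below 0 on the log2 scale in each library. In the pattern and Fc receptor list 12 of 17 were above 0 in the MCAO library and 9 of 17 in the control library. Late cells also carried Irf8, Ccr2, Tcf4 and Cenpf, genes of monocytes, plasmacytoid dendritic cells and dividing cells, among the 12 that were lowest in members. Irf8 was at 0.704 in MCAO members against 3.57 in MCAO late cells and at 0.462 in control members against 3.80 in control late cells. The part of such cells in this comparison was not tested.

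Against Ifit-high mature neutrophils the members differed less, in a comparison added after the data were seen. Of 2564 genes 80 (3.12%) were at least 1.5-fold higher in members in both libraries and 151 (5.89%) were lower. Of the 3 label markers outside the gate, only Mmp25 was at least 1.5-fold higher in members. Retnlg and Fpr1 did not reach this limit in either library. Retnlg was at 354 in MCAO and 312 in control Ifit-high cells, against 408 and 412 in members. In mature cells with stefin A genes at 20 or more, Retnlg was at 402 in the MCAO library and 401 in the control library. Mmp25 was at 2.23 and 1.61 in these MCAO and control cells, against 2.32 in members of both libraries. Fpr1 was at 9.55 and 9.39, against 9.30 and 11.1 in members. The control values rest on 40 cells. Of 20 tested interferon response genes outside the gate 18 were lower, with Ifit2 at 0.169 in members against 1.89 in Ifit-high cells of the MCAO library and 0.379 against 2.95 in the control library. Interferon is known to induce these genes together with the Ifit genes, which the rule used, so nothing is read from this count. Of the 11 tested secondary granule genes 5 were higher in members, none was lower, and Itgb2l was 1.21 and 1.40 higher on the log2 scale in the MCAO and control libraries. Serpinb1a, an inhibitor of neutrophil serine proteases, was 1.33 and 1.37 higher, and Cd55, which shields cells from complement, 1.99 and 1.55 higher. In the pattern and Fc receptor list 13 of 16 tested genes were below 0 on the log2 scale in the MCAO library and 12 in the control library. For immediate early genes these counts were 12 and 11 of 12, and for NF-kB inflammatory genes 6 and 7 of 8. In the chemoattractant and trafficking receptor list 8 of 13 were below 0 in each library. Il1b was lower in members, with log2 ratios of -1.69 in the MCAO library and -1.81 in the control library. The members thus stood between immature and Ifit-high cells in Il1b, at 4.01 in MCAO and 4.72 in control members against 12.9 and 16.6 in Ifit-high cells.

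The members spread widely in residual secondary granule transcripts, which the rule only capped. Ltf, Camp and Ngp together were under 50 in 353 MCAO members (45.1%) and 361 control members (46.0%). They were 50 to 150 in 209 MCAO (26.7%) and 216 control members (27.5%), and 150 to 400 in 221 MCAO (28.2%) and 208 control members (26.5%). These shares had overlapping intervals in the 2 libraries. Of 2555 genes 279 (10.9%) were at least 1.5-fold higher in the band under 50 than in the band of 150 to 400 in both libraries, and 181 (7.08%) were lower, a ranking added after the data were seen. Il1b had the highest ratio of the band under 50 over the band of 150 to 400. It was at 9.58 under 50, 1.49 at 50 to 150 and 0.383 at 150 to 400 in the MCAO library, and at 11.1, 2.03 and 0.288 in the control library. Clec7a was at 8.21, 2.70 and 0.602 across the same bands in the MCAO library and at 10.9, 3.22 and 0.38 in the control library. Ccl6 was at 43.5, 20.2 and 5.84 in the MCAO library and at 47.1, 21.3 and 6.30 in the control library. Il13ra1, a receptor chain for interleukins 4 and 13, and Pla2g7, which breaks down platelet activating factor, were among the 12 highest too, as were Prr5l, Sirpb1b, Vmp1, Tspan13, Ifitm1, St8sia4 and Jaml.

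Golim4, a Golgi membrane protein gene, Inhba, an activin subunit gene, Trp53inp2, Acvrl1 and Cd55 had the highest ratios of the band of 150 to 400 over the band under 50. The bands were cut on secondary granule genes, so nothing is read from other genes of that stage, such as Cebpe, Itgb2l and Cd177, that are higher where Ltf, Camp and Ngp are. Cebpe, the transcription factor needed for secondary granules, was at 0.422, 0.752 and 1.33 from the lowest band to the highest in the MCAO library and at 0.304, 0.417 and 1.03 in the control library. Serpinb1a was at 0.926, 2.15 and 5.27 in the MCAO library and at 1.10, 2.75 and 4.69 in the control library. Cebpe, Serpinb1a and Itgb2l were also among the 12 highest there. Cd177 was at 11.5, 26.4 and 34.5 in the MCAO library and at 8.17, 19.1 and 28.5 in the control library. Cxcr2 went the other way, at 47.3, 34.9 and 24.1 in the MCAO library and at 47.2, 37.9 and 27.2 in the control library. Mmp25 was at 1.33, 2.60 and 3.09 in the MCAO library and at 1.40, 2.5 and 3.15 in the control library, so this marker was more abundant in the members with more residual secondary granule transcripts. Retnlg was highest in the middle band of both libraries, at 422, 466 and 349 in the MCAO library and at 392.5, 460 and 389 in the control library. The bands also differed in depth, with medians of 2992, 3752 and 4738 UMIs in the MCAO library and 2513, 3345 and 3989 in the control library, and the part of depth was not tested.

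**Figure D3:**
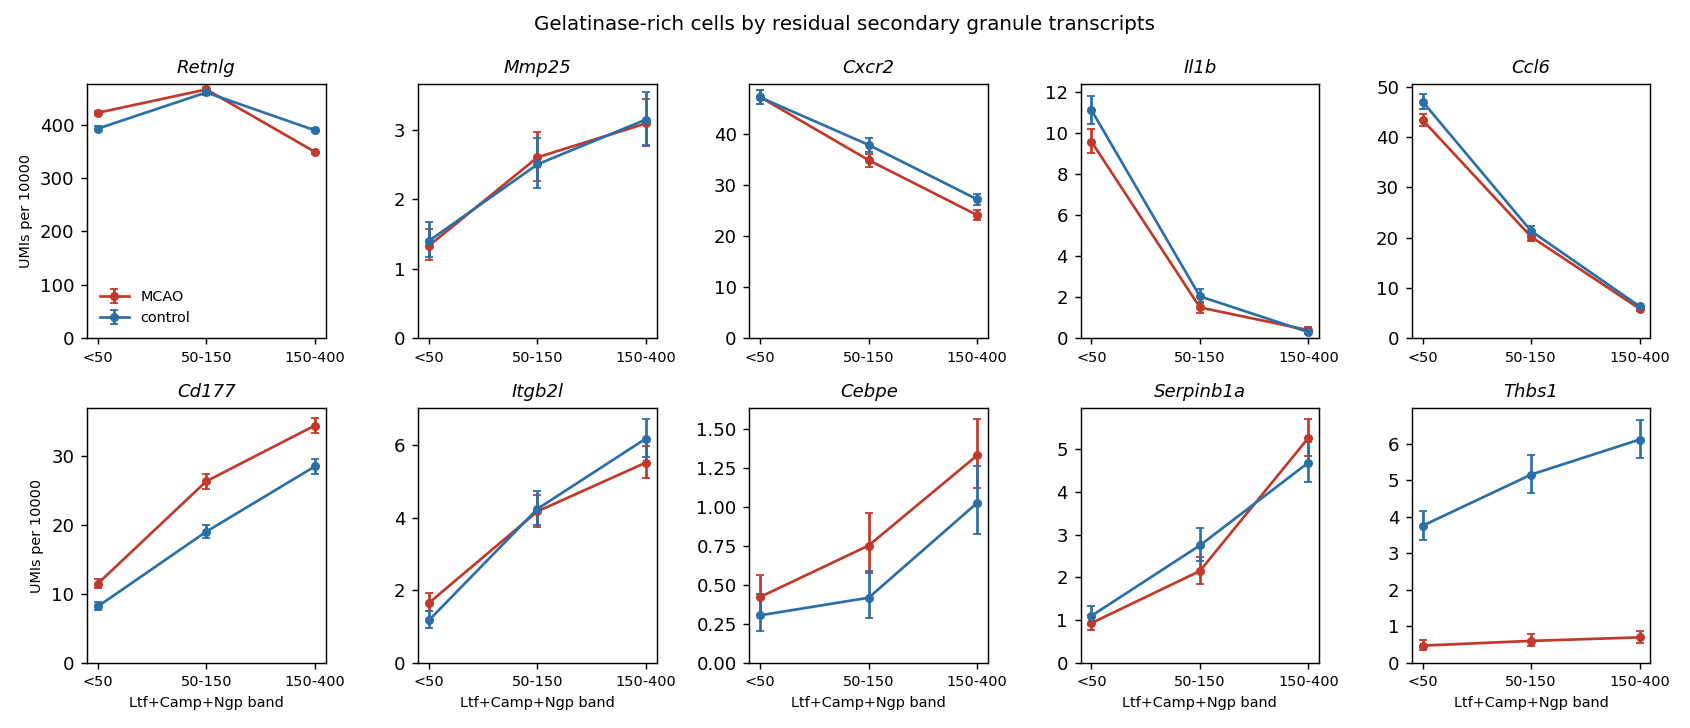
Levels of 10 genes (UMIs per 10000, vertical axes) in members with Ltf, Camp and Ngp together at under 50, 50 to 150 and 150 to 400 (left to right), MCAO in red and control in blue, with 95% Poisson intervals. Il1b and Ccl6 are highest under 50 and Cd177, Itgb2l and Cebpe at 150 to 400, while Thbs1 is lower in the MCAO library in every band.

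Between the libraries most transcripts of the members differed by less than 1.5-fold. Of 2727 genes at or above 0.5 per 10000 in either library, 58 (2.13%) were at least 1.5-fold higher in MCAO members and 85 (3.12%) were lower, and the median log2 ratio was -0.00384. Gate genes, haemoglobin genes and antibody genes that reached this level are included in these counts. The 10 highest cells held from 4.90% to 16% of the MCAO UMIs of Wfdc17, Asprv1, Lrg1 and Cmah, which were among the 12 highest ratios. Wfdc17, a small secreted protein with a protease inhibitor fold, was at 3.57 in MCAO members and 0.837 in control members, 4.27-fold [3.68 to 4.96] higher. It was found in 42.1% of MCAO and 15.2% of control members, and in 12.2% of MCAO and 5.47% of control B lineage cells. Lrg1, a leucine-rich glycoprotein stored in neutrophil granules, was at 15.2 in MCAO members and 7.07 in control members, 2.16-fold [2.04 to 2.28] higher, and in 89.4% of MCAO and 61.7% of control members, with 23% of MCAO and 12.6% of control B lineage cells having a UMI. Asprv1, an aspartic protease gene, was at 9.25 in MCAO members and 3.94 in control members, 2.35-fold higher, and it was found in 62.7% of MCAO and 33.6% of control members and in 8.47% of MCAO and 4.48% of control B lineage cells. Cmah, which makes a modified sialic acid, was 2.20-fold higher. The shares of B lineage cells with a UMI of Wfdc17, Lrg1 and Asprv1 were thus lower than those of members and also higher in the MCAO library, and the part of free RNA was not tested. In late mature cells without early cells, Wfdc17 was found in 72.5% of MCAO and 33.1% of control cells. Lrg1 was found there in 86.2% of MCAO and 50% of control cells, and Asprv1 in 60.1% and 26.3%. Higher shares of these 3 genes in the MCAO library were thus not limited to the members. The stefin A gene Stfa2l1, outside the gate, was at 13.9 in MCAO members and 6.91 in control members, 2.01-fold [1.90 to 2.13] higher. Stfa2, Stfa3 and BC100530 of the gate itself also ranked among the 12 highest, although the rule capped them in both libraries. Stefin A genes are near-identical copies, so reads may be split among them and their single values are uncertain.

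UMIs of other genes among the 12 highest were concentrated in few cells. In MCAO members 1 cell held 112 of the 175 Ccl5 UMIs, and the 10 highest cells held 80.6% of them. The 10 highest cells held 53.4% of the Fn1 UMIs, 50.5% of the Ccr2 UMIs and 39.1% of the F13a1 UMIs in MCAO members, against 26.2% of Fn1, 26.2% of Ccr2 and 13.5% of F13a1 UMIs in control members. The 10 highest cells held 37.4% of the Stfa3 UMIs and 37.0% of the BC100530 UMIs in MCAO members, against 61.2% of Stfa3 and 84.5% of BC100530 UMIs in control members. Fn1, Ccr2 and F13a1 are monocyte markers and Ccl5 a chemokine of T and NK cells. With cells at 5 or more for Ccr2, Fn1 and F13a1 together left out, a choice made after the data were seen, the log2 ratio of Ccl5, which did not choose those cells, was 0.68 against 1.45 in all members. Over all members the log2 ratios were 1.84 for Fn1, 1.49 for Ccr2 and 1.12 for F13a1.

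Thbs1 was the gene with the lowest ratio. This matrix glycoprotein, known from platelets and as an activator of transforming growth factor beta, was at 0.585 in MCAO members and 4.98 in control members, an 8.51-fold [7.27 to 10.0] higher level in the control library. It was found in 10.2% [8.18 to 12.6] of MCAO members and 40.1% [36.7 to 43.7] of control members, and in 4.10% of MCAO and 25% of control members thinned to 1000 UMIs. The log2 ratio was -3.05 in members, -2.42 in immature, -2.87 in Ifit-high and -2.61 in late mature cells without early cells, so a lower Thbs1 level in the MCAO library was not limited to the members. Within the members it was at 0.468, 0.597 and 0.693 in the MCAO library and at 3.76, 5.16 and 6.12 in the control library from the lowest residual band to the highest. In B lineage cells thinned alike 0.492% of MCAO and 1.61% of control cells had a Thbs1 UMI.

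Genes of prostaglandin synthesis, metabolite sensing and antigen presentation were also among the 12 lowest. Ptgs2, which encodes cyclooxygenase 2, was at 0.0992 in MCAO members and 0.548 in control members, and 2.43% of MCAO and 8.92% of control members had a UMI. Hcar2, the receptor for nicotinic acid and the ketone body beta-hydroxybutyrate, was at 0.469 in MCAO members and 1.62 in control members, 3.46-fold [2.85 to 4.21] higher in the control library. The class I genes H2-Q6 and H2-Q7, whose near-identical sequences make their split uncertain, had log2 ratios of -1.26 and -1.35 in members, -1.52 and -1.49 in immature cells and -2.05 and -1.97 in Ifit-high cells. Slc7a11, a cystine transporter gene, had a log2 ratio of -1.14, and Cpt1a, which admits fatty acids to mitochondria, -1.16. Ifit3, a gate gene, stood at 1.72 in MCAO members and 4.10 in control members. The remaining names among the 12 lowest were Mpzl3, Lhx1, Vpreb3, a B cell gene, and CT010467.1, which is annotated as ribosomal RNA, overlaps AY036118 on the same strand and had log2 ratios of -1.23 in members and -1.30 in B lineage cells.

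**Figure D4:**
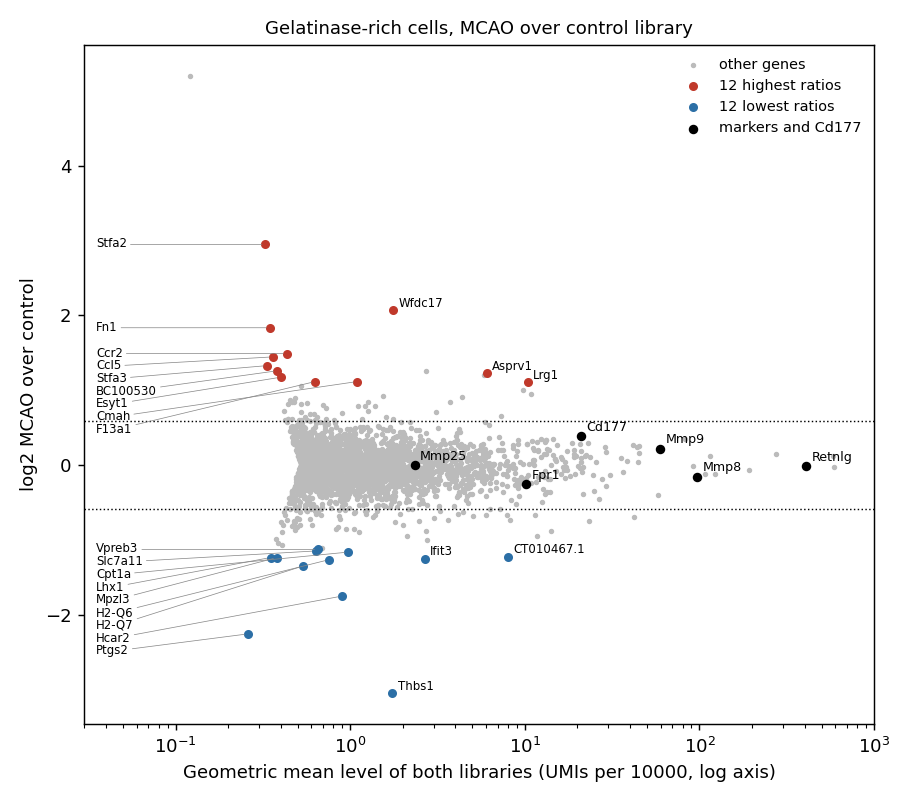
Each gene's log2 ratio of MCAO over control (vertical axis) against the geometric mean of its levels in both libraries (UMIs per 10000, log axis) in gelatinase-rich cells, with dotted lines at 1.5-fold. Thbs1 lies lowest at -3.05, the markers Mmp25 and Retnlg lie near 0, and the topmost grey point is the antibody gene Ighg2b, left out of the ranking, with 217 UMIs in MCAO members and 0 in control members.

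Several lists leaned to one side in the members between the libraries, and each is read against the 2.13% and 3.12% of all genes past 1.5-fold. All 12 tested gelatinase granule and mobilisable membrane genes lay within 1.5-fold, with a median log2 ratio of -0.02. The 12 include the gate genes Mmp8 and Mmp9, and the other 10 had a median of -0.02 as well. Adam8, a surface metalloproteinase, was furthest at 3.92 in MCAO members and 5.39 in control members, and Slc11a1, a metal ion transporter of phagosomes, was at 1.39 in MCAO members and 1.17 in control members. The integrin subunits Itgam and Itgb2, which form Mac-1, were at 16.3 and 17.0 in MCAO members and 17.1 and 17.2 in control members. The secondary granule list had a median of 0.13 and no gene past 1.5-fold of 14, of which the gate genes Ltf, Camp and Ngp are 3, and the other 11 had a median of 0.19. In the NADPH oxidase list, with a median of 0.23, 5 of 7 genes were above 0 and none was past 1.5-fold, and Ncf1, a cytosolic subunit, was at 16.7 in MCAO members and 13.8 in control members.

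Interferon response genes outside the gate were lower in MCAO members in 19 of 19 cases, 5 of them by at least 1.5-fold, with a median of -0.41. Ifi204, a DNA sensor of the PYHIN family, was at 1.94 in MCAO members and 3.88 in control members, Oasl2 at 9.05 in MCAO and 14.3 in control members, and Isg15, a ubiquitin-like protein, at 1.49 in MCAO and 2.62 in control members. The cap on Ifit genes applied in both libraries. Interferon is known to induce the listed genes together with the Ifit genes, and the part of the cap was not tested. The 22 genes of the list summed to 66.7 in MCAO and 90.2 in control members. They summed to 34.1 and 48.2 in immature cells and to 25.8 and 32.4 in B lineage cells. Lower levels in the MCAO library were thus not limited to the members. In Ifit-high cells the sums were 163 and 165. The class I list had a median of -0.39 with 4 of 11 genes past 1.5-fold lower. Among them were H2-K1 at 8.40 in MCAO members and 16.2 in control members and B2m at 18 in MCAO and 30.1 in control members. The 13 genes of this list summed to 87.1 in MCAO and 125 in control members, and to 46.2 and 67.1 in immature cells. Their sums were 112 and 163 in Ifit-high cells and 111 and 129 in B lineage cells. The lower class I level in the MCAO library was thus not limited to the members. In the pattern and Fc receptor list 3 of 17 were past 1.5-fold lower and the median was -0.27, with Clec4d at 6.40 in MCAO members and 10.6 in control members. Of 8 NF-kB inflammatory genes 2 were past 1.5-fold lower, Ptgs2 and Il1rn, the interleukin 1 receptor antagonist, at 2.79 in MCAO members and 4.67 in control members. Immediate early genes had a median of -0.24, with Fos past 1.5-fold lower at 6.24 in MCAO members and 9.90 in control members.

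The protease inhibitor, ribosomal protein, glycolysis, cytoskeleton and alarmin lists had medians above 0. In the protease inhibitor list 6 of 12 genes were past 1.5-fold higher, with a median of 0.59, but 4 of these 6 are gate genes and the others were Wfdc17 and Stfa2l1. The 8 genes outside the gate had a median of 0.19. Slpi, an inhibitor of elastase, was at 14.5 in MCAO members and 11.7 in control members. Of 40 cytosolic ribosomal protein genes 39 were above 0, with a median of 0.27, and 2 were past 1.5-fold. Their summed level was 106 in MCAO members and 87.9 in control members, and 551 in MCAO and 456 in control B lineage cells. In the glycolysis and glycogen list 12 of 14 genes were above 0, none past 1.5-fold, with a median of 0.23, and the enolase gene Eno1 was at 4.96 in MCAO members and 3.62 in control members. Of 22 cytoskeleton and motility genes 18 were above 0 and none was past 1.5-fold, with a median of 0.11. In the alarmin list, where S100a8 and S100a9 chose the cells, S100a6 was at 93.2 in MCAO members and 73.4 in control members, and Lgals3, which encodes galectin 3, at 13.9 in MCAO members and 10.9 in control members. Of 13 chemoattractant and trafficking receptor genes 4 were above 0 and none was past 1.5-fold, with a median of -0.11. Among them were S1pr4, a sphingosine phosphate receptor, at 1.99 in MCAO members and 1.39 in control members and Cxcr4 at 5.01 in MCAO and 6.32 in control members. Of 7 survival and death genes 3 were above 0, with a median of -0.07, and Bak1, a pore-forming death effector, was past 1.5-fold, at 1.12 in MCAO members and 0.685 in control members.

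**Figure D5:**
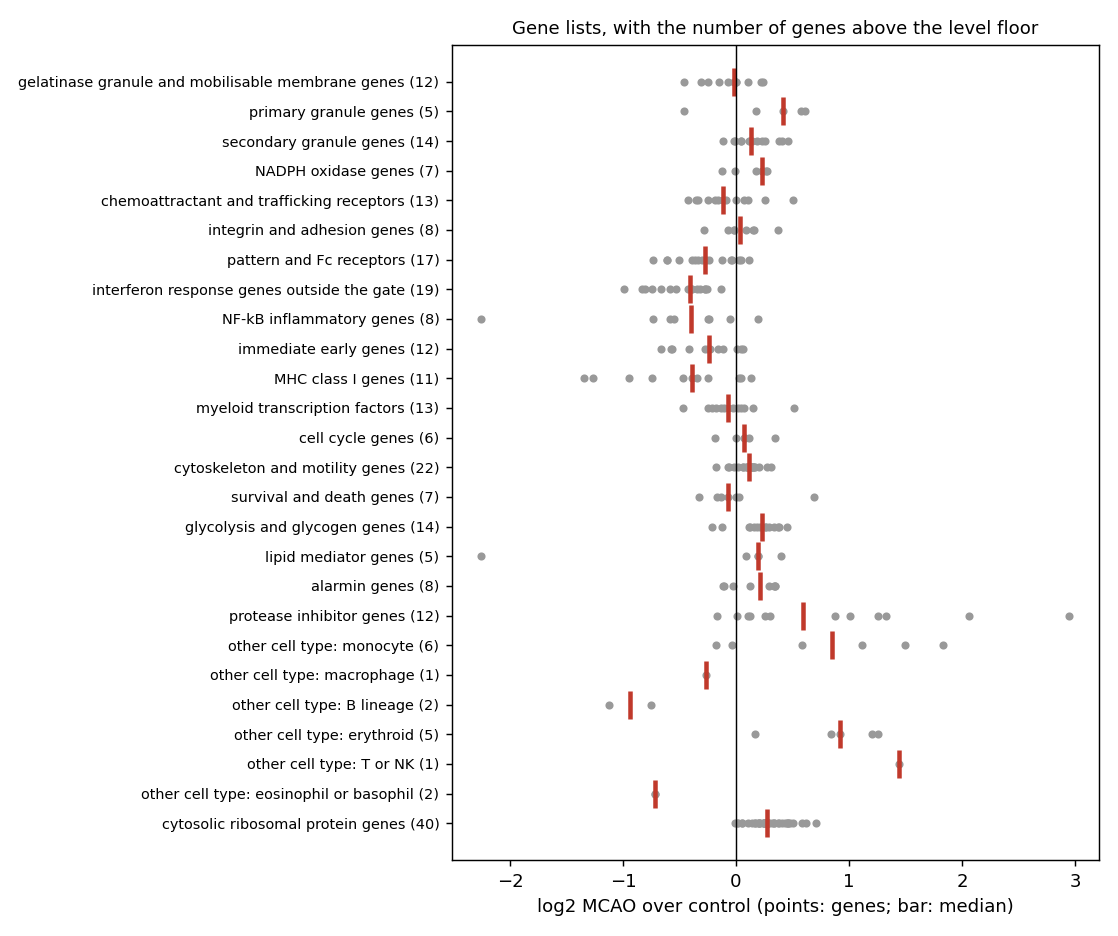
Log2 ratio of MCAO over control in gelatinase-rich cells (horizontal axis) for the tested genes of each list (rows, with their number), as grey points with a red bar at the median. All 19 interferon response genes outside the gate lie below 0 with a median of -0.41. The 12 gelatinase granule and mobilisable membrane genes, the gate genes Mmp8 and Mmp9 among them, centre on -0.02.

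Markers of other cells were low in the members, and some moved with the libraries. The 8 erythroid markers summed to 21.9 in MCAO members and 10.9 in control members, and to 31.8 in MCAO and 13 in control B lineage cells, with Alas2 at 2 UMIs in MCAO members and at 0 in control members. The 10 monocyte markers summed to 30.4 in MCAO members and 31.7 in control members, most of it Ly6c2, which neutrophils also express, at 25.8 in MCAO members and 29.2 in control members. Of the 6 tested monocyte markers 4 (Ccr2, Fn1, F13a1 and Irf8) were at least 1.5-fold higher in MCAO members, with a median log2 ratio of 0.85 over the 6. The 11 B lineage markers summed to 1.82 in MCAO members and 2.99 in control members, against 91.3 in MCAO and 102 in control B lineage cells. The 9 T or NK markers summed to 1.01 in MCAO members and 0.884 in control members. The 9 macrophage markers summed to 1.81 in MCAO members and 2.38 in control members. The rule capped the macrophage markers C1qa, C1qb and C1qc, so their low level is given as a description. The other macrophage markers summed to 1.48 in MCAO members and 1.71 in control members. The part of free RNA and of joined cells in the differences between the libraries was not tested. A doublet caller marked 10 of the 783 MCAO members and 13 of the 785 control members, and these were kept.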

How the data were processed

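Single bone marrow cells of 1 MCAO and 1 control library were profiled on BD Rhapsody. Per the submitters' processing notes the tools were fastp, STAR, UMI-tools and Seurat 4.0.6 with build mm10; their order, their settings and any filter on cells were not stated there. The authors deposited natural log values, ln(1 + UMIs per 10000 UMIs of the cell), as read from the values, since linear values summed to 10000 in each cell. Whole UMIs were recovered for 100% of 19373615 values (tolerance 0.01 UMIs), over 25943 genes, 2448 of them with no UMI. Column names carry serial numbers and no barcodes, so barcodes shared by the libraries could not be counted; the names' Mandarin words for stroke and control gave the library. The MCAO library had a median of 4952 UMIs per cell and the control library 3344. Members, lists and gates were chosen with earlier results of these data known.

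Levels were summed UMIs per 10000 UMIs of a gate with exact Poisson intervals, ratios had exact conditional binomial intervals, and shares Clopper-Pearson intervals (95%). Log2 ratios used a pseudocount of 0.02, genes needed 0.5 per 10000 on at least 1 side, and 1.5-fold was the limit for counting. Where gates or bands were compared, this level was needed in each library. B lineage cells had Cd79a plus Cd79b of at least 10 and S100a8 plus S100a9 under 400, and numbered 614 in the MCAO library and 1116 in the control library. Genes named were the 12 highest and 12 lowest of each comparison (Gm, Rik, haemoglobin and antigen receptor genes left out), the markers, Cd177, gate genes and up to 4 members furthest from 0 of a list; others were chosen after their values were seen. Among the others are Itgam, Itgb2, Cxcr2, Cxcr4, Cybb, Mki67, Ly6g, Csf3r and Slpi. Doublets were scored per library with Scrublet in scanpy 1.11.5, which marked 64 MCAO cells (1.19%) and 54 control cells (1.04%) and 38.1% and 41.6% of simulated doublets. Calculations used Python 3.11.15, numpy 2.4.6, scipy 1.17.1 and pandas 2.3.3, and the scripts were tested on simulated data. Gene positions are from GENCODE vM21 and sequences from RefSeq (GRCm38.p6).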

Additional observations from a re-analysis of the deposited data

Results flagged for a closer look

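Ccl5 was the named gene whose ratio went opposite ways in different gates. Its log2 ratio of MCAO over control was 1.45 in gelatinase-rich cells, -0.85 in immature neutrophils and -3.47 in late mature neutrophils without early cells. The difference was not tested. In gelatinase-rich cells of the MCAO library 112 of its 175 UMIs lay in 1 cell.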

How the results depend on the processing

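Each group had 1 library, so no replicate could be left out. No paired analysis was possible because each group has 1 sample. Counts of genes past 1.5-fold moved with depth and gene choice. For MCAO over control in the members, 58 higher and 85 lower became 95 and 140 among cells with 2000 to 4000 UMIs, 120 and 162 with cells thinned to 1000 UMIs before gating, and 346 and 365 with a level minimum of 0.1. They were 188 and 183 in the residual band under 50, 147 and 183 at 50 to 150, and 150 and 143 at 150 to 400, where fewer UMIs were summed.

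For members over late mature cells, 495 higher and 1507 lower became 128 and 268 at 2000 to 4000 UMIs, 168 and 656 with thinned cells, 160 and 721 with cells weighing alike, and 158 and 624 without early cells. The higher count was 277 with Mmp8 plus Mmp9 of at least 90 and 231 with Ltf, Camp and Ngp under 200, and the lower count 3612 with a level minimum of 0.1. The share difference of -5.02 points was -10.9 among cells with at least 2000 UMIs and 7.17 without the stefin A clause, and between -8.77 and -1.71 under the other settings. For these moves, beyond the fewer cells or more genes a setting takes, the cause was not tested.

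Among single genes, Ccl5 reversed to -1.14 in the band of 150 to 400. Cdc25a (0.0601) and Cst7 (0.32) reversed in members over late mature cells of 2000 to 4000 UMIs. Other genes among the 12 lowest in that comparison lost their shared direction in both libraries under some setting. These were Prtn3, Mgl2, Fcnb, Ms4a3, Elane, Gatm, Mpo and Ptgr1. Thbs1 stayed between -3.20 and -2.89, Lrg1 between 0.91 and 1.48, and Wfdc17 between 1.56 and 2.28 under every setting. Retnlg ranged from -0.16 to 0.11 and Cd177 from 0.01 to 0.49. Of the list medians, 161 values lay within 0.1 of the reported median and 15 did not. The medians of the gelatinase granule and mobilisable membrane genes (-0.09 to 0.01) and secondary granule genes (-0.05 to 0.24) crossed 0. Levels near 0.5 per 10000 rest on few UMIs, and low genes are limited by depth.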
